A study of Mus musculus with 12 samples.

Results

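Phase II conjugation enzymes attach a polar group to a drug, hormone, bile pigment or reactive lipid so that it can leave the liver cell. The 3 families followed here are the glutathione S-transferases (Gst genes), the UDP-glucuronosyltransferases (Ugt1, Ugt2 and Ugt3 genes) and the cytosolic sulfotransferases (Sult genes). They were taken by gene name from the deposited table, leaving out names marked as pseudogenes, which gave 64 of its 52636 genes: 22 Gst, 21 Ugt and 21 Sult genes. Of these, 49 passed the filter on low values (at least 10 scaled reads in at least 3 libraries, where a scaled read is a read after each library was scaled to a total of 20000000) and were tested: 20 Gst, 21 Ugt and 8 Sult genes. The other 15 are accounted for by name below.

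The RNA came from mouse hepatocytes out of fatty livers, sorted on Percoll and by centrifugation according to how much lipid they held. There were 4 groups of 3 polyA libraries: wild type (WT) low-fat, WT high-fat, Ptprk knockout (KO) low-fat and KO high-fat. The titles number the libraries of each group 1 to 3, and a second label names the animal. Low-fat and high-fat libraries with the same number and genotype carry the same animal name, so 12 libraries stand for 6 mice, called WT 1 to WT 3 and KO 1 to KO 3 after the title numbers. The protocol aimed to leave out dead hepatocytes and non-parenchymal cells. The diet, the age and sex of the mice and the cells in which Ptprk was deleted are not given in the sources used here. Fits over the 12 libraries that take no account of the mouse treat them as separate, although each mouse gave both fractions. Fits with a term for each mouse measure how the difference between fractions varies among the 6 mice. The comparison of KO and WT over mouse means measures the spread between the mice of a genotype.

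Glutathione S-transferases join the tripeptide glutathione to electrophiles such as the aldehydes formed when lipids are oxidised, and are sorted into classes named alpha (Gsta), mu (Gstm), pi (Gstp), theta (Gstt), omega (Gsto), kappa (Gstk) and zeta (Gstz). UDP-glucuronosyltransferases sit in the endoplasmic reticulum and transfer glucuronic acid to bilirubin, steroids and drugs, while sulfotransferases transfer sulfate from the cosubstrate PAPS. Many of these genes are known to differ in level between the periportal and the pericentral end of the liver lobule and between male and female mice, and several are known targets of the receptors Ahr, Nr1i2 and Nr1i3 or of the oxidative stress regulator Nfe2l2.

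The mu-class genes gave the most calls between the fractions, and they lie side by side on chromosome 3, so the promoters of 4 of them that rose and of 1 that did not are shown. The sequences are RefSeq's for GRCm38.p6, taken from the 250 bases before the gene's start in that annotation. Where GENCODE M21 puts the start farther upstream, the bases between both starts (33 in Gstm2, 109 in Gstm3, 15 in Gstm6 and 33 in Gstm5) are left out. Capitals mark matches on either strand to 3 short motifs: TGACNNNGC, the core of the antioxidant response element bound by Nfe2l2; GCGTG, the core of the element bound by Ahr; and AGGTCA, a half-site of nuclear receptors.
Gstm2 (chr3:107986454-107986670, minus strand): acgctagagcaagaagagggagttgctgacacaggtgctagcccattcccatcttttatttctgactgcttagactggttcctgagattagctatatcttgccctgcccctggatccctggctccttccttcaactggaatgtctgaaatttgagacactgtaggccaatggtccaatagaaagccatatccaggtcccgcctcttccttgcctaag
Gstm3 (chr3:107969284-107969424, minus strand): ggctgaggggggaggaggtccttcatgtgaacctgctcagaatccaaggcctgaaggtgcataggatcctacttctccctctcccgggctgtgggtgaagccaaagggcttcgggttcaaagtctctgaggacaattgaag
Gstm6 (chr3:107943750-107943984, minus strand): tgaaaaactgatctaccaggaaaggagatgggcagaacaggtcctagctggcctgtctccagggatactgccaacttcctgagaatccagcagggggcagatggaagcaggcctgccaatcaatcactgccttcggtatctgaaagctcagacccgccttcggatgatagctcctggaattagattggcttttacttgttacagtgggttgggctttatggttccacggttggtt
Gstm1 (chr3:108017974-108018223, minus strand): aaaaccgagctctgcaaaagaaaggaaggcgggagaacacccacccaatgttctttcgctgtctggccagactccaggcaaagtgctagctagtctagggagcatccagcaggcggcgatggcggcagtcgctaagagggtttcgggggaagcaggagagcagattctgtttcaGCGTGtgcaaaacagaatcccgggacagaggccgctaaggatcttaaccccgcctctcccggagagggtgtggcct
Gstm5 (chr3:107895604-107895820, plus strand): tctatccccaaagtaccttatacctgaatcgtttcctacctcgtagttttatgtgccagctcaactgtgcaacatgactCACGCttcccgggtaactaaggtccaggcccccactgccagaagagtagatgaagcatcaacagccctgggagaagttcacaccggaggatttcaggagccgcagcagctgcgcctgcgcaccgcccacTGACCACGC
The sequences shown for Gstm2, Gstm3 and Gstm6, and their whole windows of 250 bases, held none of the 3 motifs, that of Gstm1 held 1 match to GCGTG, and that of Gstm5 held 1 match to TGACNNNGC and 2 to GCGTG, 1 of which lies inside the TGACNNNGC match. Over 32851 RefSeq mouse promoters of 250 bases, 10.2% held TGACNNNGC, 28.2% held GCGTG and 14.02% held AGGTCA. Of the 56 members with a promoter in that table, 2 (3.57%), 8 (14.3%) and 10 (17.9%) held them, in the same order. The windows of Gstm4, which was higher in the high-fat fraction of each mouse, and of Gstm7, which was not, are not shown. Neither held any of the 3 motifs. A match is a description of letters and not a bound site.

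The libraries held an estimated 15.1 M to 25 M reads, and 3 reads correspond to 2.40 to 3.98 scaled reads, a floor that covers counting error only. The members took 0.668% to 0.869% of the reads, with Ugt1a1 alone counted for the Ugt1a genes and Ugt2a1 for Ugt2a2. Ptprk, the targeted gene, had 2724 to 2883 scaled reads in WT low-fat, 2174 to 2578 in WT high-fat, 1117 to 1364 in KO low-fat and 1179 to 1217 in KO high-fat libraries, so that every KO library was below every WT library. Its KO mean was 45.6% of the WT mean in low-fat and 49.9% in high-fat libraries. Genes typical of hepatocytes were abundant in all libraries, with sums over the 7 found in the table of 546067 to 629332 scaled reads, and of the bile duct and progenitor genes Krt19, Krt7, Epcam and Cftr stood at 0 to 7, while Sox9, Spp1 and Pkhd1 stood at 64 to 565. Sox9 was called lower in the high-fat fraction with the mouse term described below (log2 difference -0.61, adjusted p = 0.00282, limma). The 4 libraries numbered 1 (WT 1 and KO 1, both fractions) stood apart from the other 8 in several conjugation genes, which is described further on, and results that rest on them are given with and without them.

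Per kilobase of annotated exon, and as means over the 12 libraries, the highest levels were those of Gstm1 (7950 scaled reads per kilobase), Gstp1 (7491), Ugt2b5 (6172) and Ugt1a1 (6169, with shared exons). Ugt2b36 (4633) and Ugt2b1 (4118) followed, then Gsta3 (2939), Sult2a8 (2936) and Ugt2a3 (2915), which lay within 1% of each other. The remaining subfamily leaders were Ugt3a2 (2382), Gstt1 (2361), Gstz1 (2163, an enzyme of tyrosine breakdown), Sult1a1 (2123), Gstk1 (1311), Gsto1 (834) and Sult5a1 (119). These levels use the length of all exons of a gene, so a gene with a long minor isoform is set too low. They do not separate reads that fit near-identical copies: Gstp1 shares 33.7% of its 50-base words with other genes, mostly Gstp2, and Ugt2b5 shares 41.7%, mostly with Ugt2b38.

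High-fat and low-fat fractions were compared over both genotypes with limma, and with a term for each mouse because each mouse gave both fractions. With that term 8 of 49 tested members (16.3%) were called at an adjusted p under 0.05, against 10.4% of all 16563 genes tested. Members called higher in the high-fat fraction were the mu-class transferases Gstm2, Gstm3, Gstm6 and Gstm1, the sulfotransferase Sult2a8 and the glucuronosyltransferase Ugt2b35 (6 of 49, 12.2%, against 6.76% of all genes). Sult5a1 and Gsta2 were called lower (2 of 49, 4.08%, against 3.68%). Without the mouse term, limma called 0 of 49 members against 5.74% of all genes (4.97% higher and 0.767% lower), and 6 of 49 members (12.2%) against 19.1% of all genes had an unadjusted p under 0.05. With it, 15 of 49 (30.6%) against 28.4% did. In bulk RNA, fewer cells of a type and less RNA per cell cannot be told apart.

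Gstm2 had 238, 348 and 560 scaled reads in the low-fat libraries of WT 1 to 3 and 464, 719 and 755 in their high-fat libraries. In KO 1 to 3 it had 237, 157 and 461 in the low-fat and 490, 371 and 725 in the high-fat libraries. Each of the 6 mice was higher in its high-fat fraction, although the groups of libraries overlap, since WT 3 low-fat is above WT 1 high-fat. The log2 difference was 0.81 (SE 0.10, adjusted p = 0.00349 with the mouse term), a 1.76-fold rise.

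Gstm3 had 128, 228 and 392 scaled reads in WT 1 to 3 low-fat and 226, 384 and 578 in WT 1 to 3 high-fat libraries. The KO values were 182, 149 and 354 in low-fat and 263, 281 and 491 in high-fat libraries, again higher in the high-fat fraction of each of the 6 mice. Its log2 difference was 0.59 (SE 0.09, adjusted p = 0.00567). Of its 50-base words, 28.8% also occur in other genes, most often in Gm8834, so reads of that copy may be counted with it.

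Gstm6 rose by a log2 difference of 0.43 (SE 0.08, adjusted p = 0.0146), from 531 to 1082 scaled reads over the 6 low-fat libraries to 928 to 1231 over the 6 high-fat libraries. Gstm1, the glutathione S-transferase with the highest level per kilobase of exon, rose by 0.27 (SE 0.06, adjusted p = 0.0340), from 7412 to 13880 in low-fat to 9923 to 16912 in high-fat libraries. For both genes all 6 mice were higher in the high-fat fraction while the ranges of the 2 fractions overlap. Gstm4 was higher in the high-fat fraction in 6 of 6 mice as well, with 518 to 859 against 640 to 1046 scaled reads, and missed the threshold (log2 difference 0.26, SE 0.09, adjusted p = 0.101 with the mouse term).

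**Figure D1:**
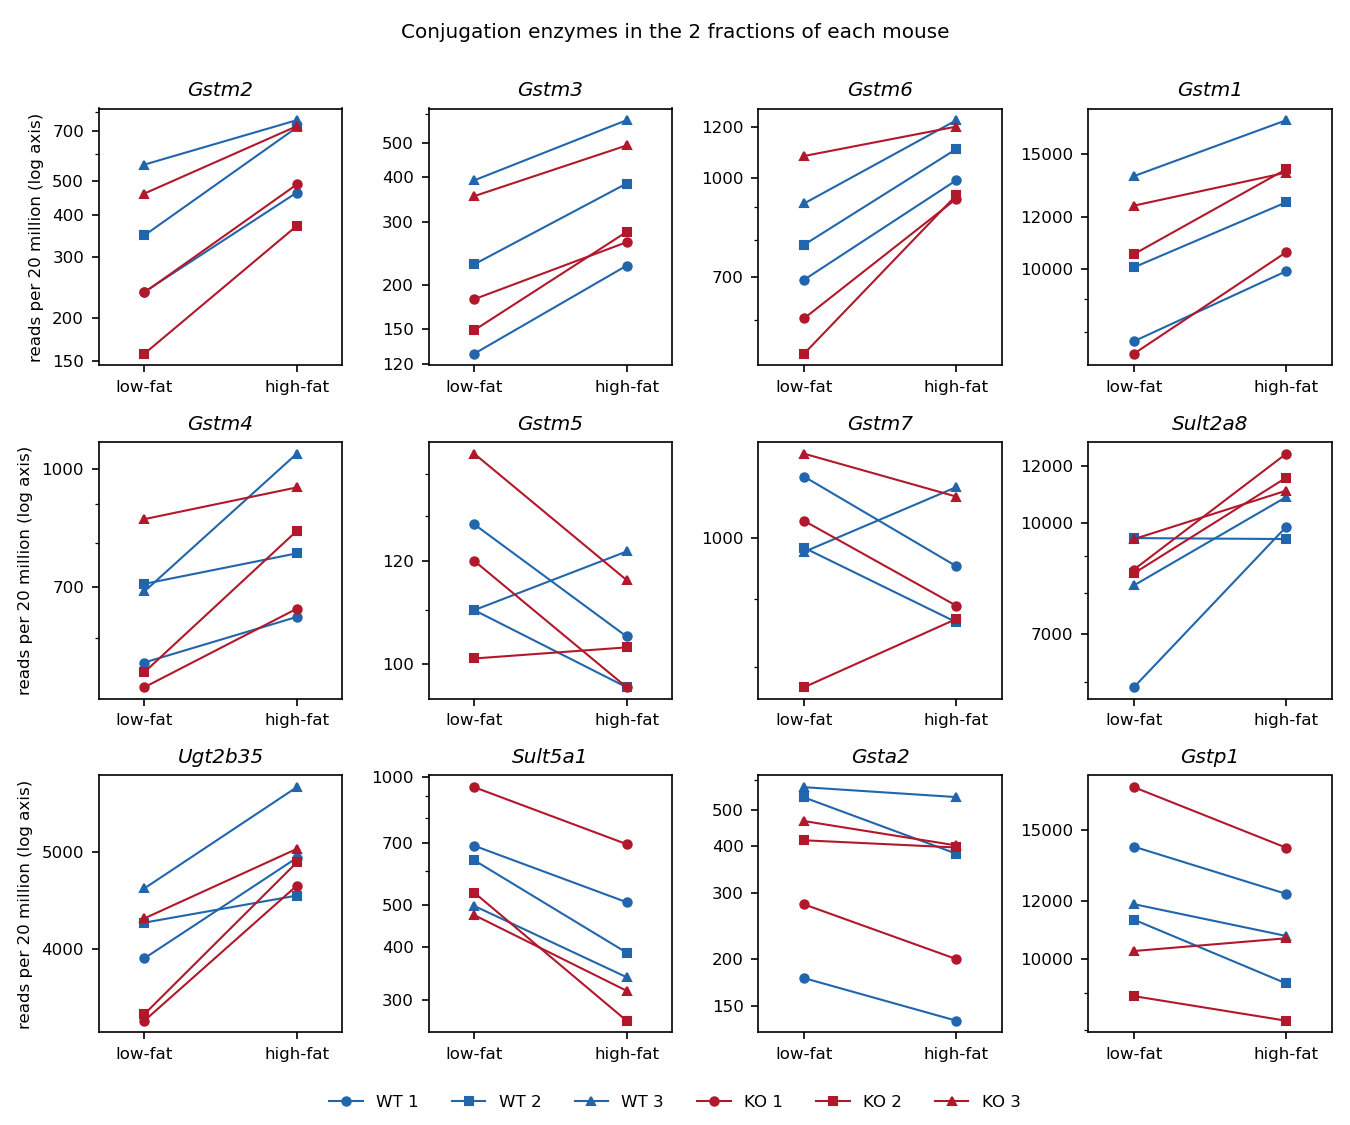
Scaled reads (log axis) of 12 conjugation genes in the low-fat and high-fat library of each mouse; lines join the fractions of 1 mouse, blue for WT and red for KO. Gstm2, Gstm3, Gstm6, Gstm1 and Gstm4 slope up and Sult5a1 and Gsta2 slope down in all 6 mice, while Gstm5 and Gstm7 slope up in only 2 of 6.

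The remaining mu-class genes behaved otherwise. Gstm5 had 101 to 145 scaled reads in low-fat and 96 to 122 in high-fat libraries (log2 difference -0.23, SE 0.11, adjusted p = 0.212 with the mouse term), and Gstm7 had 773 to 1158 and 865 to 1093 (-0.14, SE 0.09, adjusted p = 0.314). Both were higher in the high-fat fraction in 2 of 6 mice. In GRCm38 the cluster runs on chromosome 3 from Gstm5 (start 107895821, plus strand) through Gstm7 (107926334), Gstm6 (107938847), Gstm3 (107963696), Gstm2 (107981702) and Gstm1 (108012255) to Gstm4 (108040408), all but the first on the minus strand. The 5 genes that were higher in all 6 mice are thus next to each other, and the pair that was not lies at the other end.

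Gsta2, an alpha-class transferase, was called lower: 178, 540 and 575 scaled reads in WT 1 to 3 low-fat against 137, 382 and 541 in high-fat, and 280, 415 and 467 in KO 1 to 3 low-fat against 200, 397 and 402 in high-fat libraries. All 6 mice were lower in the high-fat fraction, and the differences between mice were larger than those between fractions (log2 difference -0.36, SE 0.10, adjusted p = 0.0467 with the mouse term). Gsta2 shares 49.8% of its 50-base words with other genes, mostly Gsta1, whose own row holds only 4 to 26 scaled reads. Since 90.5% of the words of Gsta1 occur in other genes, mostly Gm3776, that row may not hold all of its reads. Gsta3, the abundant alpha-class gene, had 9255 to 13928 scaled reads in low-fat and 12474 to 16176 in high-fat libraries and was higher in the high-fat fraction in 6 of 6 mice, without passing the test (0.21, SE 0.07, adjusted p = 0.0736). Gsta4, which acts on the lipid aldehyde 4-hydroxynonenal, had 425 to 736 and 388 to 792 scaled reads (-0.03, SE 0.10).

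The pi, omega, theta, kappa and zeta classes had no called member with the mouse term over all 6 mice. Gstp1, the main pi-class enzyme, had 8904 to 17156 scaled reads in low-fat and 8242 to 14185 in high-fat libraries and was lower in the high-fat fraction in 5 of 6 mice (-0.24, SE 0.08, adjusted p = 0.0986 with the mouse term). Gsto1, the omega-class enzyme, had 1719 to 1859 and 1348 to 1888 (-0.29, SE 0.09, adjusted p = 0.0636), and was called lower without KO 2 (0.0179). Gstt1 had 3001 to 4247 and 2991 to 4503 (0.05, SE 0.09), Gstk1 1692 to 2011 and 1818 to 2112 (-0.01, SE 0.08), and Gstz1 10522 to 11624 and 10343 to 11858 (-0.05, SE 0.07). Gstz1 had one of the narrowest ranges among the members, while Gstt3 was higher in the high-fat fraction in 6 of 6 mice with a log2 difference of 0.16 (SE 0.06, adjusted p = 0.102).

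Among the sulfotransferases, Sult5a1 gave the lowest log2 difference of any member. It had 689, 637 and 498 scaled reads in WT 1 to 3 low-fat and 508, 387 and 339 in WT 1 to 3 high-fat libraries. KO 1 to 3 had 945, 535 and 474 in low-fat and 695, 268 and 315 in high-fat libraries. All 6 mice were lower in the high-fat fraction, by a log2 difference of -0.70 (SE 0.07, adjusted p = 0.00237 with the mouse term), or 1.62-fold. The gene lies on chromosome 8 (123140192 to 123158315, minus strand, GRCm38), shares no exon base with another gene, and shares only 1.13% of its 50-base words.

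Sult2a8, a liver sulfotransferase of the family that acts on steroids and bile acids, was called higher. It had 5908, 9533 and 8191 scaled reads in WT 1 to 3 low-fat, 9888, 9504 and 10878 in WT 1 to 3 high-fat, 8617, 8514 and 9502 in KO 1 to 3 low-fat and 12498, 11574 and 11100 in KO 1 to 3 high-fat libraries. The high-fat fraction was higher in 5 of 6 mice, WT 2 being level (log2 difference 0.31, SE 0.08, adjusted p = 0.0495 with the mouse term). Sult1a1, the main phenol sulfotransferase, had 1916 to 4016 scaled reads in low-fat and 2055 to 3962 in high-fat libraries and, after scaling, was lower in the high-fat fraction in 6 of 6 mice by a log2 difference of -0.12 (SE 0.06, adjusted p = 0.247). Sult1d1, which acts on catecholamines, had 2713 to 3221 and 2358 to 3670 (-0.01, SE 0.08).

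Ugt2b35, on chromosome 5 in the Ugt2 cluster, was the only glucuronosyltransferase called. It had 3911, 4248 and 4599 scaled reads in WT 1 to 3 low-fat, 4936, 4523 and 5815 in WT 1 to 3 high-fat, 3384, 3436 and 4290 in KO 1 to 3 low-fat and 4628, 4884 and 5040 in KO 1 to 3 high-fat libraries. All 6 mice were higher in the high-fat fraction (0.25, SE 0.06, adjusted p = 0.0358 with the mouse term). Other abundant Ugt2b genes did not pass: Ugt2b1 had 6074 to 12027 and 8360 to 14752 (0.20, SE 0.07, adjusted p = 0.118), Ugt2b34 7210 to 9060 and 7998 to 10172 (0.11, SE 0.06), Ugt2b36 7779 to 9776 and 8900 to 10917 (0.01, SE 0.07), and Ugt2b5 9640 to 12633 and 9617 to 12726 (-0.06, SE 0.08). The Ugt3 enzymes, which use other sugar donors than glucuronic acid, stayed within their spread as well (Ugt3a2 -0.02, SE 0.07; Ugt3a1 -0.01, SE 0.07).

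How far these calls depend on single mice was checked by refitting with the mouse term and 1 mouse left out. Gstm2, Gstm3 and Sult5a1 were called in each of the 6 refits, with adjusted p from 0.00105 to 0.0264, from 0.00105 to 0.0369 and from 0.000322 to 0.0244. Gstm6 was lost without WT 1 (adjusted p = 0.0595) and without WT 2 (0.0644). Sult2a8 was kept without WT 2 (0.0439) and without KO 1 (0.0391), and lost without WT 1 (0.214), WT 3 (0.130), KO 2 (0.0665) and KO 3 (0.120). Gstm1 and Ugt2b35 were kept only without KO 1 (0.0225 and 0.0165) and lost in the other 5 refits (0.0548 to 0.147 and 0.0509 to 0.155), and Gsta2 was kept only without KO 2 (0.0216) and lost in the other 5 (0.0502 to 0.161). With a correlation between the libraries of a mouse, estimated over all genes, in place of the mouse term, limma called Gstm2 (adjusted p = 0.0315), Sult5a1 (0.0155) and Sult2a8 (0.0339) and, in addition, Gsto1 as lower (0.0499). This fit called 4 of 49 members, 2 higher and 2 lower, beside 1945 of 16563 genes, 1291 higher and 654 lower. The calls of Gstm3 (adjusted p = 0.133), Gstm6 (0.0532), Gstm1 (0.228), Ugt2b35 (0.0577) and Gsta2 (0.406) were lost in that fit. Leaving out both mice numbered 1, with the mouse term, gave 10 called members: Gsta3, Gstm4 and Ugt2b1 joined, and Gsta2 dropped out (adjusted p = 0.120). Of 49 members, 9 were called higher and 1 lower, beside 1241 of 16563 genes, 883 higher and 358 lower. That refit was chosen after the data were seen.

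Counted by direction alone, 8 of 49 members were higher in the high-fat fraction in 6 of 6 mice (16.3%, against 9.73% of all genes) and 3 were lower in 6 of 6 (6.12%, against 11.7%). The median log2 difference over the 49 members was 0.05, and -0.01 over the 40 left when the Ugt1a genes and the pair Ugt2a1 and Ugt2a2 count once each, beside -0.05 over all genes tested. By class the median was 0.27 over the 7 mu-class genes, -0.07 over the 4 alpha-class genes, -0.22 over the 3 pi-class genes, 0.14 over the 10 Ugt2 genes and -0.12 over the 5 tested Sult1 genes.

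**Figure D2:**
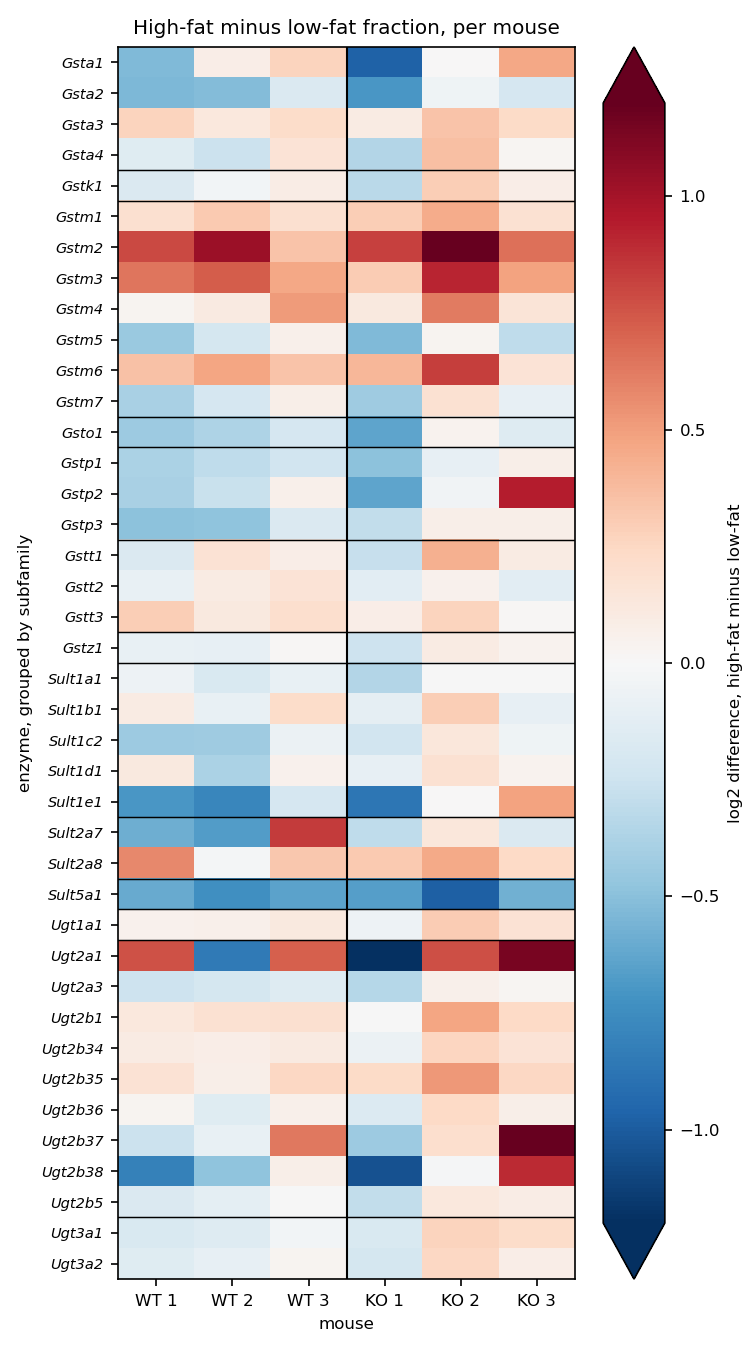
Log2 difference between the high-fat and the low-fat library of each mouse (columns; red is higher in high-fat, blue lower) for 40 tested members in order of subfamily, with Ugt1a1 standing for the Ugt1a genes and Ugt2a1 for Ugt2a2. Colours stop at 1.2 in either direction; Gstm2, Gstm3, Gstm6, Gstm1, Gstm4, Gsta3, Gstt3 and Ugt2b35 are red and Sult5a1, Gsta2 and Sult1a1 blue in all 6 mice.

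Within one genotype the calls were fewer. In WT mice limma called 0 of 49 members without the mouse term, where 2 of 49 (4.08%) had an unadjusted p under 0.05 against 12.2% of all genes, and with it called Sult5a1 alone (log2 difference -0.66, SE 0.10, adjusted p = 0.0452), 2.04% of the members against 1.18% of all genes (0.821% higher and 0.356% lower). An unadjusted p under 0.05 was then seen for 12 of 49 members (24.5%) against 19.9%. In KO mice limma called 0 of 49 members without the term, against 1.04% of all genes (1.01% higher and 0.0362% lower), and 3 of 49 (6.12%) had an unadjusted p under 0.05 against 8.77%. With the term it called Sult5a1 (-0.74, SE 0.10, adjusted p = 0.0199) and Gstm2 (0.91, SE 0.15, adjusted p = 0.0260), 4.08% of the members against 2.29% of all genes (1.86% higher and 0.429% lower), and 10 of 49 (20.4%) against 13.8% had an unadjusted p under 0.05. With the same-mouse correlation 0 of 49 members were called in WT and 0 of 49 in KO mice, so these single-genotype calls of Sult5a1 and Gstm2 were lost. Of all 16563 genes, that fit called 313 higher and 55 lower in WT and 501 higher and 39 lower in KO mice. Gstm2 in WT mice had a log2 difference of 0.72 (SE 0.15, adjusted p = 0.0638), so the genotypes are not shown to differ. Gstp3, a pi-class gene, had 462, 346 and 358 scaled reads in WT 1 to 3 low-fat against 369, 251 and 337 in high-fat libraries (WT log2 difference -0.38, SE 0.11, adjusted p = 0.133 with the term), and 329 to 349 against 311 to 363 in KO libraries. Among members with a mean of at least 100 scaled reads, Gstp3 had one of the highest interactions of genotype and fraction (0.33, SE 0.16 with the term, adjusted p near 1). Next to it were Ugt2b38 (0.35, SE 0.44), Ugt2b37 (0.32, SE 0.46) and Gstp2 (0.28, SE 0.34). The lowest among these members were those of Gstt2 (-0.12, SE 0.12), Gstt3 (-0.09, SE 0.11), Sult5a1 (-0.08, SE 0.14) and Gstm5 (-0.07, SE 0.23). The interaction of genotype and fraction was called for 0 of 49 members and 0 of 16563 genes (0%) with and without the mouse term, and 0 members but 24 genes (0.145%) without it and 62 (0.374%) with it had an unadjusted p under 0.05.

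Markers of other cells and of the liver lobule moved with the fractions. Genes of the pericentral hepatocyte list summed to 57960 to 108775 scaled reads in low-fat and 105232 to 145420 in high-fat libraries, and 7 of 10 were called higher with the mouse term, among them Cyp1a2 (log2 difference 0.79, SE 0.10, adjusted p = 0.00347) and Cyp2e1 (0.71, SE 0.11, adjusted p = 0.00536). Genes of the periportal list summed to 316000 to 362224 in low-fat and 257059 to 300252 in high-fat libraries, and 7 of 10 were called lower, Cyp2f2 by -0.57 (SE 0.11, adjusted p = 0.0122). Sums of the macrophage list were 449 to 1389 in low-fat and 2037 to 10942 in high-fat libraries (8 of 9 called higher), those of the stellate cell list 145 to 695 and 2141 to 3632 (8 of 8), and those of the endothelial list 1091 to 3080 and 4770 to 13898 (8 of 8). RNAs that are retained in the nucleus, among them Malat1 and Neat1, summed to 34564 to 139467 in low-fat and 40465 to 172491 in high-fat libraries, and moved in opposite ways. WT 1 had 70568 in its low-fat and 168621 in its high-fat library, KO 1 had 52955 and 172491, and KO 2 had 139467 and 40821. No gene of these lists was at 0 in all libraries. Their part in the differences of the conjugation enzymes was not tested.

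The 9 Ugt1a genes are a special case of one locus on chromosome 1 (plus strand), where each gene has its own first exon and all share the following 4. The first exon sets which substrate is bound, and Ugt1a1 is the enzyme that conjugates bilirubin. The sequences below, from GENCODE M21 on GRCm38, join the last 45 bases of the first exon, in lower case, to the first 45 of exon 2 (start 88215044), in capitals, and show that only the part before the junction tells the genes apart.
Ugt1a1 (first exon chr1:88211959-88212871): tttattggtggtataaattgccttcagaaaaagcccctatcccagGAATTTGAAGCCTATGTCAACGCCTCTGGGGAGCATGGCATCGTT
Ugt1a6a (first exon chr1:88138378-88139331): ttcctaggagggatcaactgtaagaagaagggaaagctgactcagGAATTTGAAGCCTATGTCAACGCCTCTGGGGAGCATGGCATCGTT
Ugt1a9 (first exon chr1:88070800-88071678): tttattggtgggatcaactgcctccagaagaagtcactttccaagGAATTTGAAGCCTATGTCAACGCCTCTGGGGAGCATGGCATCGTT
Ugt1a5 (first exon chr1:88166012-88166903): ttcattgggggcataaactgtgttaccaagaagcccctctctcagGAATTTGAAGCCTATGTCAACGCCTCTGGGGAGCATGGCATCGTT
All 9 genes have the same 45 bases in exon 2 and 8 distinct ends of the first exon, since Ugt1a2 and Ugt1a5 are identical there. In the deposited table the 9 rows rise and fall together and the lowest row, Ugt1a8 or Ugt1a10, holds 70.6% to 75.6% of the highest, Ugt1a1. Reads of the shared exons were therefore counted for every row, and the rows are not 9 separate measurements. Ugt1a1 also shares 41.5% of its exon bases with Gm20528 on the opposite strand, and the strand setting of the counting is not given in the sources used here. The Gm20528 row held 5451 to 9221 scaled reads and, like the Ugt1a1 row, was highest in the KO 2 high-fat library.

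What each row held above the lowest row of the same library was computed as a description. For Ugt1a1 this excess was 2603, 3585 and 3631 scaled reads in WT 1 to 3 low-fat, 3317, 3872 and 4585 in WT 1 to 3 high-fat, 2681, 4086 and 3759 in KO 1 to 3 low-fat and 3352, 5173 and 4378 in KO 1 to 3 high-fat libraries. It was higher in the high-fat fraction of all 6 mice, by at most 1.27 times, and made up 27.3% of the Ugt1a1 row. Gm20528 overlaps 922 exon bases of Ugt1a1 and 394 to 534 of the other rows. Reads counted for both strands can therefore be part of the Ugt1a1 excess, which was not tested. The excess of Ugt1a6a, a conjugator of simple phenols, ranged from 907 to 1269, and those of Ugt1a6b and Ugt1a7c were nearly the same (936 to 1259 and 912 to 1265). These 3 rows share 2170, 1444 and 2304 exon bases with other genes, against 1311 to 1318 for the other 6 rows, so reads common to the 3 can be part of each excess, which is not a value of Ugt1a6a alone.

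Ugt1a9 went the other way: its excess was 89 to 251 scaled reads and was lower in the high-fat fraction of all 6 mice, at 0.526 to 0.854 of the low-fat value. Ugt1a5 had an excess of 65 to 336, Ugt1a2 of 3 to 44 and Ugt1a10 of 0 to 7. As whole rows the 9 genes had log2 differences between fractions of 0.06 to 0.11, none of them called.

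**Figure D3:**
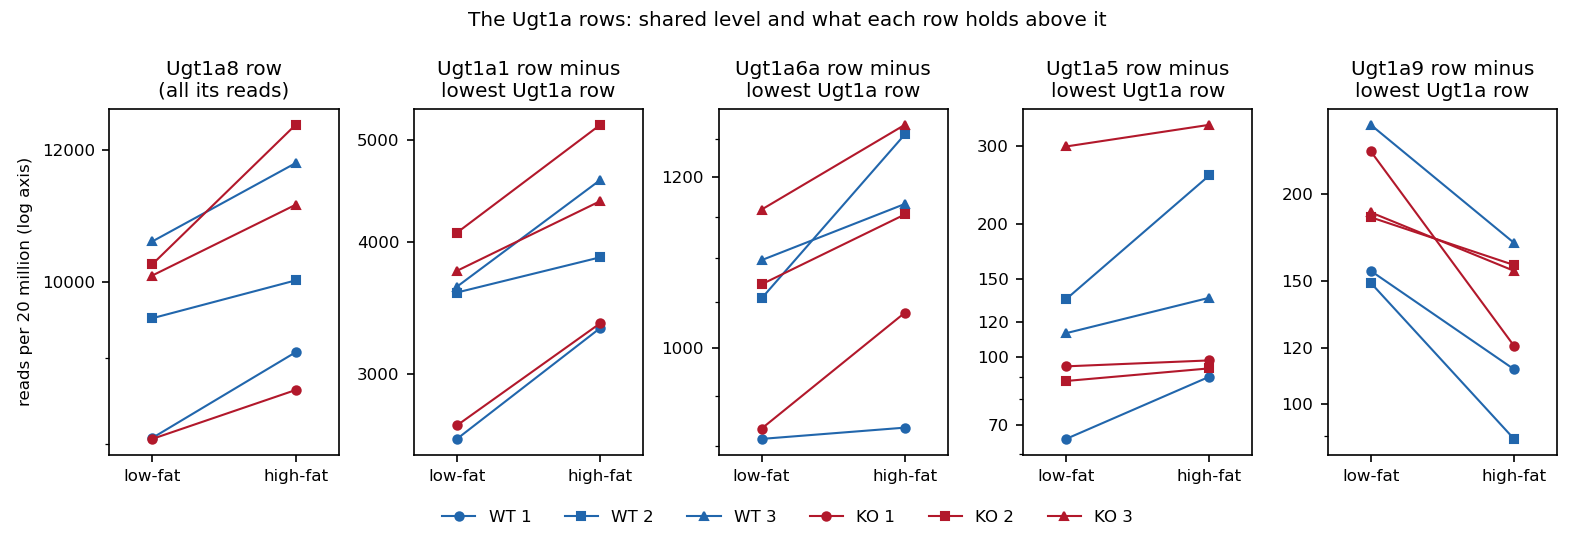
Scaled reads (log axis) in the low-fat and high-fat library of each mouse for the whole Ugt1a8 row, and for what the Ugt1a1, Ugt1a6a, Ugt1a5 and Ugt1a9 rows hold above the lowest Ugt1a row of the same library. Lines join the fractions of 1 mouse, blue for WT and red for KO; the excess of Ugt1a1 slopes up and that of Ugt1a9 down in all 6 mice.

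Knockout and wild type were compared in each fraction and over the mean of both fractions of each mouse. No conjugation enzyme was called in any of the 3 comparisons: limma called 0 of 49 members in low-fat libraries (0.00604% of all genes, which is Ptprk alone), 0 of 49 in high-fat libraries (0.00604%, again Ptprk alone) and 0 of 49 over mouse means (0%). At an unadjusted p under 0.05 there were 0 members in each of them, against 1.64%, 1.96% and 2.22% of all genes. With a term for the replicate number limma called 0 of 49 members as well (0.00604%, 0.0121%, all of it lower in KO, and 0% of all genes), while 4, 3 and 4 members (8.16%, 6.12% and 8.16%) had an unadjusted p under 0.05, against 2.94%, 3.76% and 4% of all genes. The median log2 difference of the 49 members, KO minus WT, was 0.02 in low-fat, 0.09 in high-fat libraries and 0.05 over mouse means, beside -0.00, 0.01 and 0.00 over all genes. Leaving out 1 library or mouse moved the members' medians between -0.04 and 0.15, between -0.03 and 0.23 and between -0.04 and 0.19, in the same order, so their sign changes with 1 library or mouse. These comparisons share libraries and are not independent of each other. Over mouse means Ptprk itself, at a log2 difference of -1.05 (SE 0.09), missed the threshold. Its adjusted p from limma was 0.0555, and 0.114 with the term for the replicate number. In that comparison 0 called members therefore does not show that the enzymes were unchanged.

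Gstt2, a theta-class transferase, had the highest log2 difference between KO and WT, in low-fat libraries and over mouse means, among members with a mean of at least 100 scaled reads. In high-fat libraries Ugt2b37 was above it (0.50, SE 0.40, against 0.46, SE 0.33). It had 390, 565 and 675 in WT 1 to 3 low-fat and 542, 924 and 987 in KO 1 to 3 low-fat libraries. In high-fat libraries it had 410, 613 and 805 in WT 1 to 3 and 579, 949 and 894 in KO 1 to 3. The KO 1 values lie inside the WT range, and the log2 difference over mouse means was 0.52 (SE 0.29, adjusted p near 1). Without WT 1 it was 0.27 and without KO 1 it was 0.78. With a term for the replicate number, limma gave an SE of 0.10, an unadjusted p = 0.00204 and an adjusted p = 0.900 over mouse means. In single fractions limma's adjusted p with that term was 0.286 in low-fat and 0.598 in high-fat libraries. KO was above WT at each replicate number in both fractions, where a number pairs different WT and KO mice.

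Sult2a8 was higher in KO than in WT without overlap in high-fat libraries (values above) and over mouse means, with log2 differences of 0.25 (SE 0.15) and 0.23 (SE 0.12). Such a separation was seen for 1 of 49 members (2.04%) against 2.43% of all genes in high-fat libraries, and for 3 of 49 (6.12%) against 2.96% over mouse means. The other two over mouse means are Ugt2a1 and Ugt2a2, whose rows hold the same 3 to 22 scaled reads in all 12 libraries and share most of their sequence, and which alone separated in low-fat libraries (2 of 49, 4.08%, against 2.48%). No member was lower in KO without overlap in low-fat (2.93% of all genes), in high-fat libraries (2.52%) or over mouse means (3.26%).

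Among the other members named by size, Ugt2b37 had log2 differences over mouse means of 0.34 (SE 0.28) and Ugt3a1 of 0.24 (SE 0.14), while Gstm2 had -0.37 (SE 0.36), Ugt2b1 -0.26 (SE 0.20) and Sult1b1, which acts on thyroid hormones, -0.22 (SE 0.20). The mu-class genes that differed between fractions were within their spread between genotypes, Gstm1 at -0.00 (SE 0.25) and Gstm3 at -0.10 (SE 0.42). Sult5a1 stood at 0.01 (SE 0.28) and Gstm6 at -0.13 (SE 0.21). In single fractions Gstt3 (0.19, SE 0.34) and Ugt2b35 (-0.20, SE 0.14) in low-fat and Gstp2 (0.28, SE 0.37) in high-fat libraries were also among the outermost members, and none was called.

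**Figure D4:**
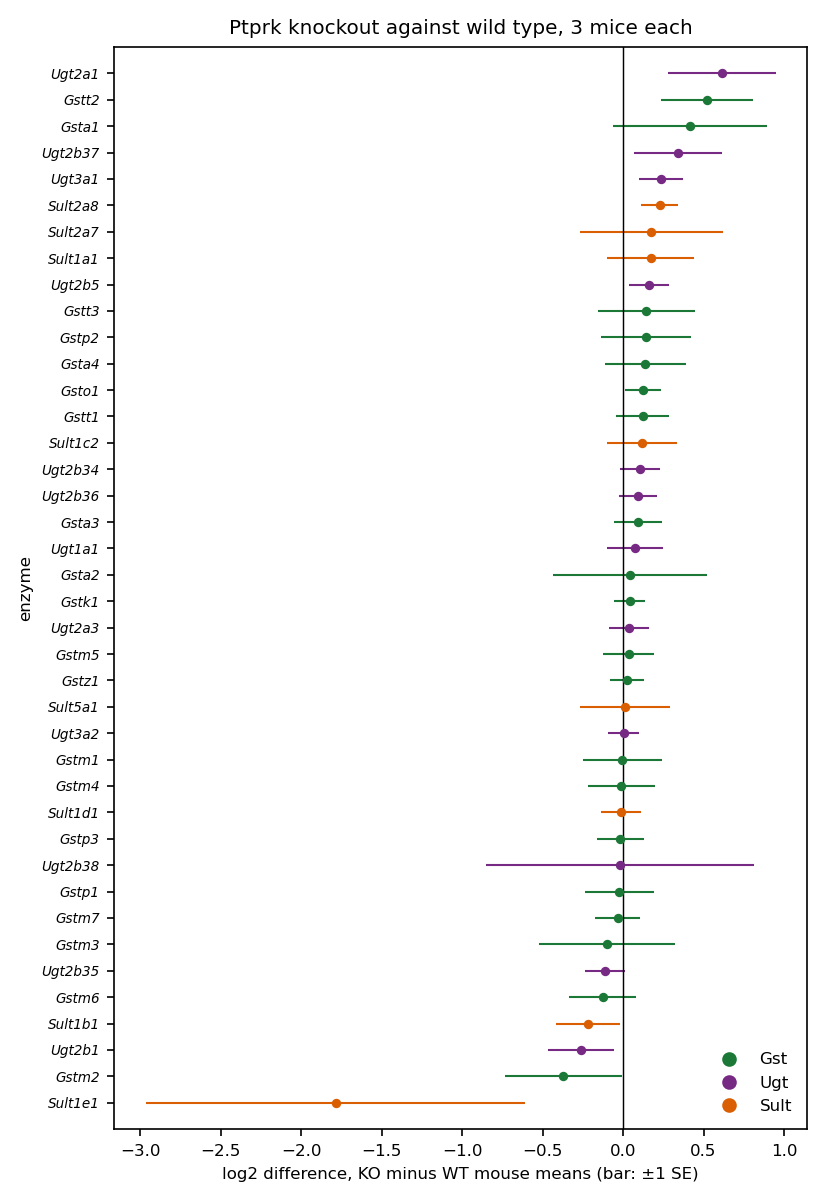
Log2 difference between KO and WT over the mouse means of 3 mice each (points; bars are 1 standard error to each side) for 40 tested members, coloured by family. Most bars reach 0, and Sult1e1, at -1.79, has the widest bar.

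Sult1e1, the estrogen sulfotransferase, and Ugt2b38 varied widely between mice of a group. Sult1e1 had 420, 71 and 23 scaled reads in WT 1 to 3 low-fat, 290, 41 and 21 in WT 1 to 3 high-fat, 127, 5 and 11 in KO 1 to 3 low-fat and 80, 5 and 16 in KO 1 to 3 high-fat libraries. KO was below WT at each replicate number in both fractions, while the groups overlap and a number pairs different WT and KO mice. Its log2 difference between KO and WT over mouse means was -1.79 (SE 1.18, adjusted p near 1; with a term for the replicate number SE 0.43, limma's unadjusted p = 0.00642 and adjusted p near 1). Its spread within groups (SD 1.98 on the log2 scale) was above that of 99.9% of all genes tested. Ugt2b38 had 1415, 161 and 192 in WT 1 to 3 low-fat, 904, 116 and 214 in WT 1 to 3 high-fat, 996, 158 and 181 in KO 1 to 3 low-fat and 561, 155 and 335 in KO 1 to 3 high-fat libraries, with an SD within groups of 1.44 against a median of 0.23 over all genes.

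In both genes the 4 libraries numbered 1 lay above all 8 others, and the same held for Ugt2b1, at 11712 to 14752 against 6074 to 11643 scaled reads (3 of 49 members, 6.12%, against 1.38% of all genes). After scaling between libraries they lay below all others for Gsta2, Gsta4, Gstm1, Gstt3 and Sult1a1 and for the 9 rows of the Ugt1a locus (14 of 49, 28.6%, against 1.62%), of which the 9 share their reads. Sult1a1, for example, had 1916 to 2816 in these 4 libraries and 3159 to 4016 in the others. This split was seen in the data and is not a group of the study, and it gets no test.

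**Figure D5:**
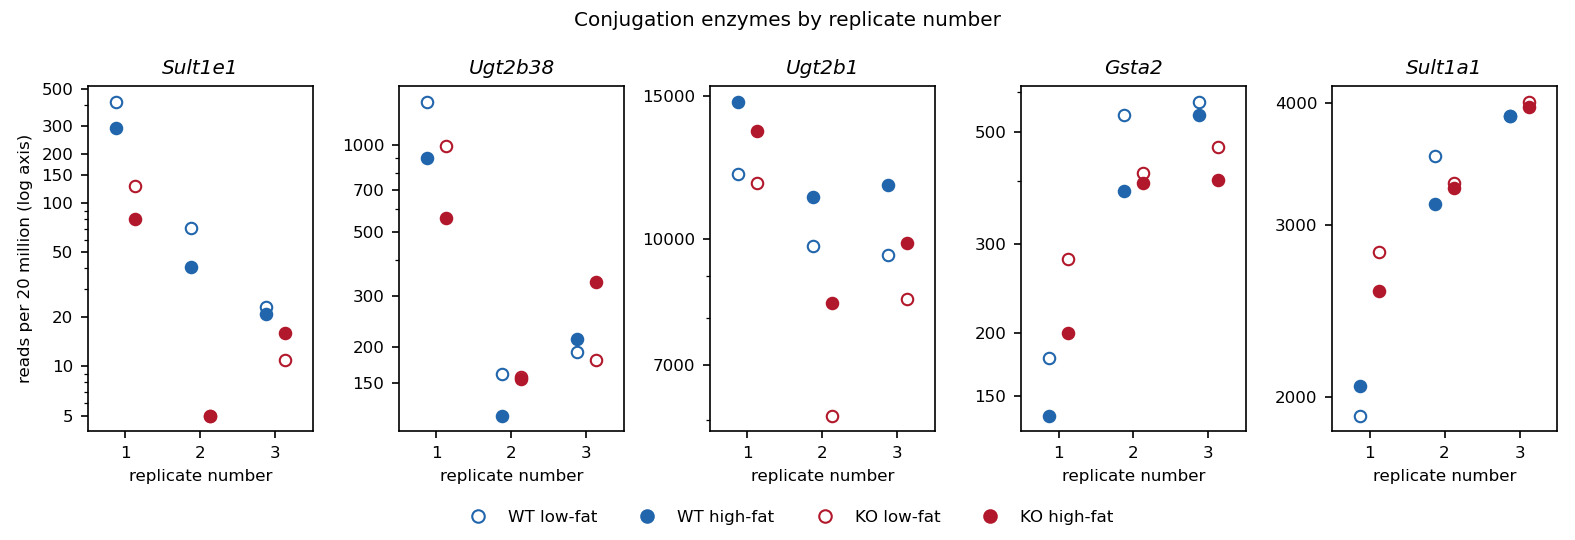
Scaled reads (log axis) of 5 members by replicate number, blue for WT and red for KO, open circles for low-fat and filled circles for high-fat libraries. The 4 libraries numbered 1 are the highest for Sult1e1, Ugt2b38 and Ugt2b1 and the lowest for Gsta2 and Sult1a1.

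Other genes moved with the same libraries. The clock output gene Dbp had 77 to 256 scaled reads in the libraries numbered 1 and 265 to 2011 in the others, and the male-biased genes Cyp4a12a and Cyp7b1 had 4096 to 4512 and 4783 to 7134 against 1456 to 3662 and 1538 to 3782. A list of 8 male-biased genes summed to 87564 to 107175 against 42062 to 74677. A list of 8 female-biased genes summed to 137 to 297 against 310 to 2560. A list of 5 genes of chromosomal sex, Xist and Y-linked genes, summed to 2895 to 3959 over all 12 libraries. That sum adds Xist to Y-linked genes, so it does not tell the sex of a mouse. The macrophage list summed to 10942 and 9465 in the high-fat libraries numbered 1 and to 2037 to 2319 in the other 4 high-fat libraries. Whether the mice numbered 1 were handled at another time is not given in the sources used here, and the part of these differences in the conjugation enzymes was not tested.

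The genes around conjugation, a list of 46 that covers glutathione and cosubstrate supply, other conjugating enzymes, regulators and exporters, were compared in the same fits; 45 were in the table and 42 were tested. Between fractions 5 of 42 rose and 4 fell with the mouse term (6.76% and 3.68% of all genes), and 3 rose and 1 fell without it (4.97% and 0.767%). No gene of the list was called between KO and WT in either fraction or over mouse means. The exporters of conjugates toward the blood rose in the high-fat fraction: Abcc4 from 9 to 17 scaled reads in low-fat to 24 to 76 in high-fat libraries (log2 difference 1.35, SE 0.24, adjusted p = 0.0106 with the mouse term and 0.00766 without), and Abcc3 from 2618 to 9011 to 5846 to 12867 (0.56, SE 0.09, adjusted p = 0.00606 with the term and 0.363 without). The biliary exporter Abcc2 had 12013 to 18835 and 15321 to 20350 (0.19, SE 0.07, adjusted p = 0.115).

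Of the regulators, Ahr had 626 to 1162 scaled reads in low-fat and 1008 to 1707 in high-fat libraries (0.66, SE 0.10, adjusted p = 0.00530 with the term and 0.0446 without). Nr1i3, the receptor CAR, had 1113 to 3552 and 2556 to 4807 (0.67, SE 0.14, adjusted p = 0.0214 with the term and 0.187 without). Esr1, the estrogen receptor, fell from 808 to 1071 to 554 to 687 with no overlap (-0.80, SE 0.08, adjusted p = 0.00229 with the term and 0.00223 without), and Hnf4a fell from 18034 to 24270 to 14760 to 22067 (-0.31, SE 0.08, adjusted p = 0.0431 with the term and 0.183 without).

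Hmox1, which breaks down heme and is abundant in macrophages, had 73 to 133 and 147 to 629 scaled reads (1.31, SE 0.31, adjusted p = 0.0322 with the term and 0.0447 without), with 629 and 439 in the high-fat libraries numbered 1 and 147 to 190 in the other high-fat libraries. The part of macrophages in the difference of Hmox1 was not tested. Nqo1 and Gclc were not called: Nqo1 had 46 to 142 and 59 to 204 (0.22, SE 0.10, adjusted p = 0.199) and Gclc, the rate-limiting enzyme of glutathione synthesis, 9644 to 12908 and 9572 to 12219 (-0.18, SE 0.07, adjusted p = 0.154). Gss, which completes glutathione, fell by 0.33 on the log2 scale (SE 0.08, adjusted p = 0.0442 with the term and 0.0624 without), and the methyltransferase Nnmt fell by 0.33 (SE 0.06, adjusted p = 0.00947 with the term and 0.213 without). Ugdh, which makes UDP-glucuronic acid, had a log2 difference of 0.01 (SE 0.07), and Papss2, which makes PAPS, one of 0.08 (SE 0.06).

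The 15 members below the filter were Gsto2, Gstt4, Sult1c1, Sult2a1 to Sult2a6, Sult2b1, Sult3a1, Sult3a2, Sult4a1, Sult6b1 and Sult6b2, none of which had more than 6 scaled reads in any library. Sult1c1, Sult2a3, Sult2a5, Sult2a6 and Sult3a2 were at 0 in all 12 libraries, which allows up to 2.40 to 3.98 scaled reads per library. All 7 of the untested Sult2 genes thus stood near 0 beside Sult2a8 at 5908 to 12498 and Sult2a7 at 9 to 34, and differences among them were not detectable at this depth.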

How the data were processed

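The deposited table gives 1 number per gene and library, treated here as a score: judging by the values, the authors brought the reads of each library to a total of 20000000 and rounded up. The submitters' processing notes name the build mm9; aligner, counter, annotation and strand setting are not given in the sources used here. All 12 value columns were matched to a library by name. Depth was estimated from the spacing of low values.

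Values were rescaled by trimmed means of M values (trims of 30% and 5%) and transformed as log2(value + 2), which understates changes of low genes. limma 3.58.1 in R 4.3.3 fitted 4 group means over 12 libraries with trended variances for 16563 genes, in 7 comparisons, with two-sided p adjusted by Benjamini-Hochberg and called under 0.05; a mouse term was the alternative. For KO against WT over both fractions limma used 6 mouse means. The scripts were tested on simulated data. The pairing of fractions comes from the animal names in the sample descriptions: deviations of the libraries of a mouse correlated at 0.47 to 0.58 in WT and at -0.01 to 0.46 in KO mice.

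Named are Ptprk, every member called in any fit, the leading member of each subfamily, the 4 members at either end of each comparison among those with a mean of at least 100, and called genes of the pathway list; other members were named after their values were seen. Members and lists were chosen with earlier results of these data known. Gene positions, exon overlap and 50-base words come from GENCODE M21 (GRCm38), promoters from RefSeq (GRCm38.p6), matched by gene identifier and symbol; 56 of 64 members had a promoter. One gene of the bile duct and progenitor list is not reported here.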

Additional observations from a re-analysis of the deposited data

How the results depend on the processing

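The alternatives were a replicate block, pseudocounts of 0.5 and 10, no filter, median-of-ratios or deposited scaling, only the libraries compared, and leaving out libraries or mice; refits of the block without single mice or both mice numbered 1, and a same-mouse correlation, were chosen after seeing the data. Among headline counts and medians 298 values stayed and 53 moved; among single members 769 stayed on the same side, 55 became calls and 14 turned. With the replicate block, called genes were 195 in WT, 379 in KO and 1729 in both genotypes between fractions and 2 in KO against WT, high-fat; called members were 1, 2 and 8. The block changed no other call. For KO against WT, libraries with the same number come from different mice (correlations of deviations 0.25 to 0.40 in low-fat, -0.17 to 0.49 in high-fat), and 4, 3 and 4 members had an unadjusted p under 0.05 with it. With the same-mouse correlation called genes were 368, 540 and 1945 and called members 0, 0 and 4.

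With a pseudocount of 10, 1 gene was called in WT; without the filter 107 were called in KO; over mouse means 1 was called without the filter, with median-of-ratios or with deposited scaling. Deposited scaling gave 102 genes in KO, 2 members over both genotypes (Sult2a8 and Ugt2b35) and a WT median of 0.12. Only the libraries compared gave 0 genes in KO and in KO against WT, high-fat.

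Leaving out single libraries gave 606 to 1128 genes and 0 to 1 members over both genotypes, 0 to 80 genes in KO, 0 to 1 in WT, 1 in each refit of KO against WT, low-fat, and 0 to 1 in high-fat. Without both mice numbered 1, 353 genes and 1 member (Sult5a1) were called between fractions and 0 genes in KO against WT, low-fat. With the block and without these mice, 1241 genes and 10 members were called between fractions. Leaving out single mice with the block gave 619 genes without WT 1 to 2973 without KO 2 (1717 without KO 1), and 3 members without WT 1 to 9 without KO 1 (6 without KO 2, 4 without each of WT 2, WT 3 and KO 3). Member medians ran from -0.11 to 0.17 in WT and -0.0383 to 0.15 for KO against WT, low-fat. Leaving out 1 library turned the sign for Ugt2b38 (-1.198 to 0.61) and Gsta2 (-0.94 to 0.21) in WT, Gsta2 in KO (-0.53 to 0.0573), Gstt3 (-0.0873 to 0.50), Ugt2b37 (-0.23 to 0.44) and Ugt2b38 (-1.07 to 0.81) in KO against WT, low-fat, Gstm3 (-0.52 to 0.21) and Gstp2 (-0.0682 to 0.67) in high-fat, and Gstm6 over mouse means (-0.36 to 0.00909); the cause was not tested.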
